A study of Homo sapiens with 4 samples.

Results

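Collagen genes were examined in A549 cells depleted of RALY, a nuclear ribonucleoprotein that binds RNA. The members were all protein-coding genes of GENCODE 29 whose symbol reads COL, a number, A and a number, matched by Ensembl identifier in the count files. This rule found 45 of the 58735 annotated genes, of which 44 encode collagen chains. The remaining one, COL4A3BP, matches by its letters only: it encodes a ceramide transfer protein, and it is kept apart from the counts of chains. The chains were divided into 11 fibrillar, 6 basement membrane (type IV) and 27 other chains.

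A549 is an established human lung adenocarcinoma line. Cells of 1 group received a lentivirus with a control hairpin (shControl, genotype labelled WT), and cells of the other a lentivirus with a hairpin against RALY (shRALY, genotype labelled RALY knockdown). RNA was taken at a time labelled day 2, and each group had 2 libraries. Both groups therefore share the lentiviral infection and the serum-containing medium. The number of hairpins used and the origin of replicates from separate cultures are not given in the labels, so the spread that the p-values rest on may be technical.

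Collagens are the main structural proteins of the extracellular matrix. In each of them 3 chains wind into a triple helix, and the chains that combine are encoded by separate genes. Fibrillar collagens build rope-like fibrils, type IV collagen builds the sheet-like network of basement membranes on which epithelia rest, and the other types link, anchor or decorate these structures. Collagen assembly depends on hydroxylation of proline and lysine and on chaperones in the endoplasmic reticulum, and on trimming and cross-linking after secretion.

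The libraries held 16745818 to 18632787 counts. RALY itself had 2208 and 2272 counts in shControl and 751 and 679 in shRALY, or 32.1% of the control level (log2 -1.64, SE 0.11; edgeR adjusted p = 5.85e-11). Levels are normalised read counts scaled to library depth (CPM). In bulk RNA a change in the share of cells that express a gene and a change in RNA per cell cannot be told apart. A library with 0 counts for a gene allows at most 3 counts, which is 0.163 to 0.183 CPM, and such limits cover counting error only. Epithelial keratin genes were abundant: the 6 epithelial markers summed to 8163 to 9396 CPM, most of it KRT7, KRT8 and KRT18. EPCAM was scarce, at 3.07 and 2.29 CPM in shControl and 3.54 and 2.93 CPM in shRALY. CDH1 was at 19.6 and 26.9 CPM against 29.4 and 34.9 CPM. Of the 6 markers 3 were higher in shRALY, against 20.6% of all 15912 tested genes. KRT19 rose 3.27-fold (90.2 and 101 against 324 and 299 CPM, edgeR adjusted p = 1.35e-11). The changes of CDH1 (log2 0.47, edgeR adjusted p = 0.019) and KRT7 (log2 0.25, edgeR adjusted p = 0.0304) were smaller. Of the 9 alveolar type 2 markers 6 averaged below 1 CPM, and so did 3 of the 4 basal cell markers. Most markers listed here for the label's words alveolar and basal were thus at or near 0. Whether basal in the label means the cells that these markers define was not examined. The alveolar type 2 sum was 74.1 and 105 CPM in shControl and 118 and 140 CPM in shRALY, most of it ABCA3. ABCA3 itself overlapped between groups, at 72.2 and 103 against 88.4 and 102 CPM (log2 0.12, edgeR adjusted p = 0.513). LAMP3 went from 1 and 4 counts to 500 and 594, or from 0.0558 and 0.235 CPM to 27.2 and 36.3 CPM. Among basal markers TP63 fell from 3.35 and 3.29 CPM to 1.36 and 1.59 CPM (edgeR adjusted p = 0.00726) and NGFR rose from 2 and 6 counts to 19 and 11 (edgeR adjusted p = 0.0433). LAMP3 and NGFR passed the filter on low counts only through their shRALY libraries, so they could only be called higher. Fibroblasts are the usual source of fibrillar collagen in tissue. The 8 fibroblast markers summed to 25.2 to 26.6 CPM in shControl and 30.9 to 32.2 CPM in shRALY, 5 of them averaged below 1 CPM, DPT had no counts, and DCN had 1 count in all. ACTA2 rose from 9.6 and 8.92 CPM to 20 and 18.5 CPM (edgeR adjusted p = 2.42e-05) and THY1 fell from 14.4 and 14.5 CPM to 9.63 and 8.74 CPM (edgeR adjusted p = 0.00507). The part of these markers in the collagen results was not tested. The 5 endothelial markers summed to at most 0.998 CPM in any library, and the 4 immune markers to 5.14 to 8.32 CPM.

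The 6 type IV genes lie in 3 head-to-head pairs, each pair transcribed in opposite directions from neighbouring start sites. In the RefSeq promoter table (GRCh38.p14; 250 bases before to 50 after a start site), the start sites of COL4A1 and COL4A2 on chromosome 13 are 127 bases apart. Those of COL4A4 and COL4A3 on chromosome 2 are 419 bases apart. Those of COL4A6 and COL4A5 on the X chromosome are 380 bases apart for the nearer of the 2 listed COL4A6 start sites and 1416 for the farther. The windows of 1 member of each pair are shown because 2 of the pairs rose and the other did not pass the test, and that of COL5A1 because it had the highest fold change among the fibrillar genes. In the COL4A2 window, capitals mark the bases from the COL4A1 start site to the COL4A2 start site, so this single window holds both. In the others capitals mark the letters CCAAT (the CCAAT box), GGGCGG (the GC box bound by Sp1-type factors) or TGANTCA (the AP-1 site) on either strand.
COL4A2, chr13:110307034-110307333, plus strand: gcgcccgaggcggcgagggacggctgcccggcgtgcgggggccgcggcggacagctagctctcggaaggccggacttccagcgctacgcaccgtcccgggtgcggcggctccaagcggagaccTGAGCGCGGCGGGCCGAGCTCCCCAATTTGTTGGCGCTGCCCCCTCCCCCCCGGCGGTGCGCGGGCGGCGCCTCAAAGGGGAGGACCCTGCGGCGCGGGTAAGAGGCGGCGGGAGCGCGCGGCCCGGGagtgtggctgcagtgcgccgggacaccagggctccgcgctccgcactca
COL4A5, chrX:108439588-108439887, plus strand: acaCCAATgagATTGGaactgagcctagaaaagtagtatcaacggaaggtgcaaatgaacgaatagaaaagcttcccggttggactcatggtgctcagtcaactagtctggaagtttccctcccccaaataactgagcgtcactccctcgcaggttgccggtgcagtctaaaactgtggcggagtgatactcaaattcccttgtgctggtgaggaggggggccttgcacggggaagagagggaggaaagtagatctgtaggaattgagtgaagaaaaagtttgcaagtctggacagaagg
COL4A3, chr2:227164374-227164673, plus strand: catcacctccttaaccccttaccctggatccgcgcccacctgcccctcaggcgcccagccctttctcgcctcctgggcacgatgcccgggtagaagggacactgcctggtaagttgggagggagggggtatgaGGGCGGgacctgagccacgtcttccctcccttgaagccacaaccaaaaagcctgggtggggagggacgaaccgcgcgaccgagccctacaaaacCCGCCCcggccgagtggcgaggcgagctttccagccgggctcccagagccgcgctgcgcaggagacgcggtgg
COL5A1, chr9:134641553-134641852, plus strand: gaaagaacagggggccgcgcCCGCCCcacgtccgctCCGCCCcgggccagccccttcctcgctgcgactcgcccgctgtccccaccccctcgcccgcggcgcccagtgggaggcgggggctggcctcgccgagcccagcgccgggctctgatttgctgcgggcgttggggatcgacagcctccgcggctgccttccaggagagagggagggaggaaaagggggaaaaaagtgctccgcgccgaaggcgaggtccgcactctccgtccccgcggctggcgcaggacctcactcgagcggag

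Collagen mRNA was higher after RALY depletion, with chains called higher in each of the 3 classes. Of the 44 chains 24 were abundant enough to test. Of these 16 were higher in shRALY at an adjusted p under 0.05 (66.7%, against 20.6% of all 15912 tested genes), none was lower (20.4% of all tested genes) and 8 did not pass. A call in either direction was made for 41.0% of all tested genes. Unadjusted p-values under 0.05 gave 19 chains higher and 0 lower in edgeR, against 24% and 24.2% of all tested genes. DESeq2 called 15 chains higher, against 17.8% of all genes, and 0 lower. With a call and a change of at least 2-fold there were 12 higher chains, against 6.99% of all tested genes, and 0 lower ones, against 6.57%. By class, 4 of 7 tested fibrillar chains were higher (median log2 fold change 0.47), 4 of 6 basement membrane chains (1.39) and 8 of 11 other chains (1.33; 5 of 8 and 1.06 without the 3 chains described next). The median log2 fold change of the tested chains was 1.06, and that of all tested genes -0.01. Both shRALY libraries lay above both shControl libraries for 20 of the 24 chains, against 34.2% of tested genes, and below them for 1 chain, against 35.4%.

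COL13A1, COL20A1 and COL22A1 passed the filter on low counts only through their shRALY libraries, so they could only be higher. Without them 13 of 21 chains were higher, 9 of them by at least 2-fold, 17 had both shRALY libraries above both shControl libraries, and the median log2 fold change was 0.79. With all genes of that kind left out, 3066 of 15607 tested genes were higher, 904 of them by at least 2-fold. For 5143 of the 15607 both shRALY libraries were above both shControl libraries, and the median log2 fold change was -0.02. Within a group the collagen genes also differed between libraries: replicate 2 exceeded replicate 1 for 18 of the 24 chains in shControl (median log2 difference 0.25; 49.3% of all tested genes) and for 20 of 24 in shRALY (0.15; 53.1%), and the part of this difference in the results was not tested.

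**Figure D1:**
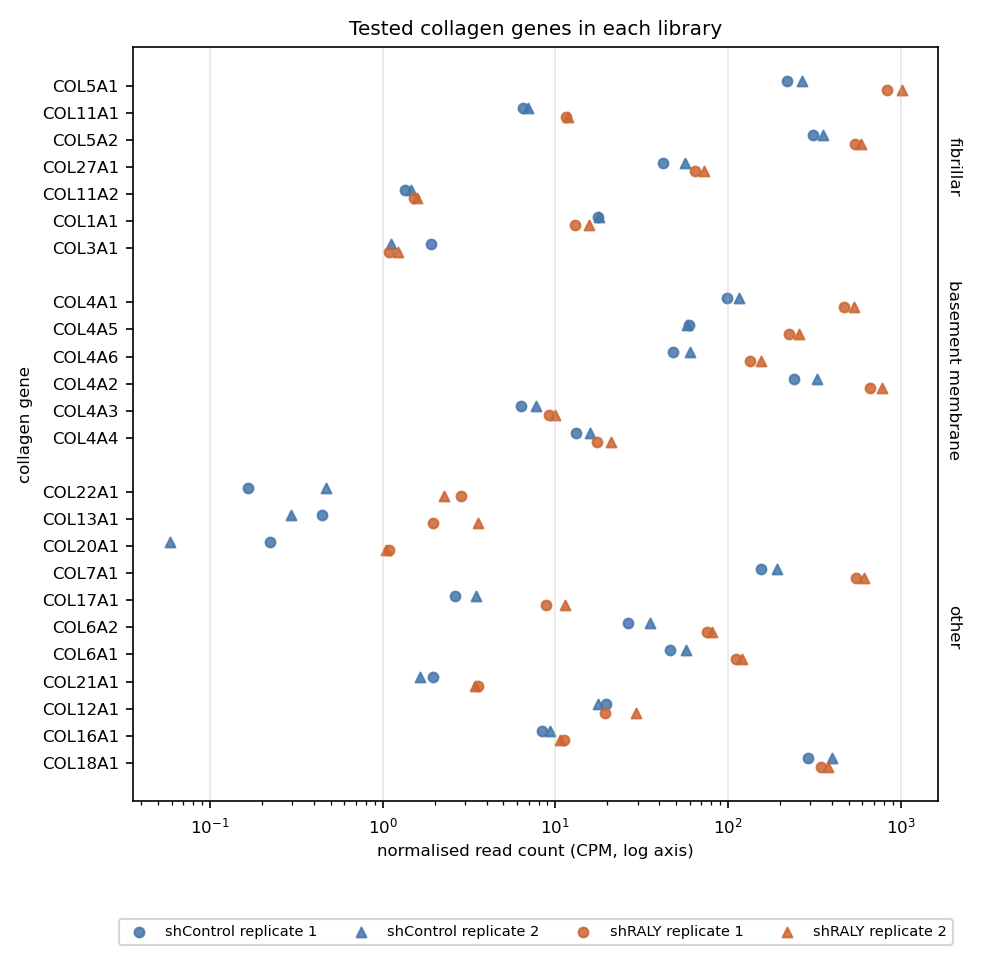
Normalised read counts (CPM, log axis) of the 24 tested collagen genes in each of the 4 libraries, by class; circles are replicate 1 and triangles replicate 2 of shControl (blue) and shRALY (orange). The groups are well apart for COL4A1 (99.3 and 116 against 471 and 538 CPM), while those of COL18A1 (291 and 398 against 345 and 381 CPM) overlap.

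Summed over the 44 chains, collagen mRNA was at 1623 and 2011 CPM in shControl and 4127 and 4720 CPM in shRALY, a ratio of group means of 2.44. It took 0.165% and 0.205% of all counts in shControl and 0.407% and 0.459% in shRALY. The basement membrane chains went from 466 and 585 CPM to 1526 and 1762 CPM (ratio of means 3.13). The fibrillar chains went from 600 and 707 CPM to 1467 and 1704 CPM (2.42), and the other chains from 556 and 718 CPM to 1134 and 1254 CPM (1.87). In each class both shRALY sums were above both shControl sums. The makeup of the collagen counts shifted as well: type IV chains were 28.7% and 29.1% of them in shControl and 37% and 37.3% in shRALY. The other chains were 34.3% and 35.7% of them in shControl and 27.5% and 26.6% in shRALY. Among the other chains, COL18A1 alone was 17.9% and 19.8% of all collagen counts in shControl and 8.36% and 8.06% in shRALY. COL7A1, also among them, went the other way, from 9.61% and 9.59% in shControl to 13.3% and 12.9% in shRALY. The fibrillar share lay between 35.2% and 37% in all 4 libraries. These sums were not tested.

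**Figure D2:**
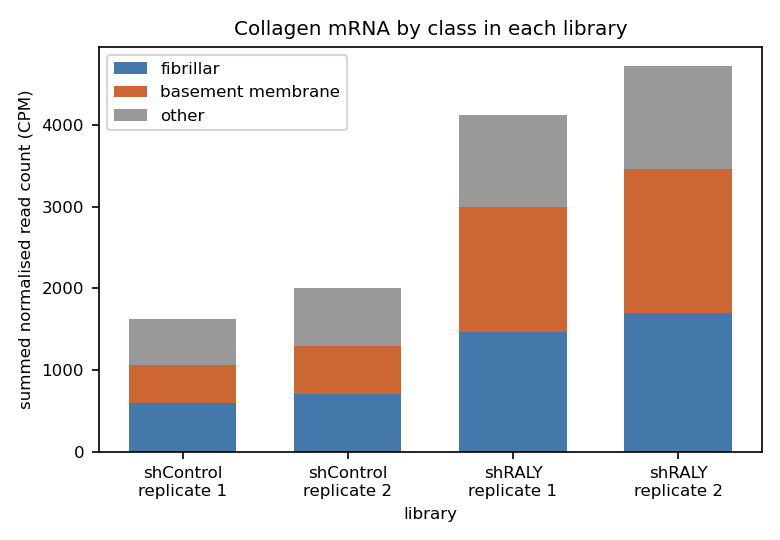
Summed normalised read counts (CPM) of the fibrillar, basement membrane and other collagen chains in each library, as stacked bars. The total is 1623 and 2011 CPM in shControl and 4127 and 4720 CPM in shRALY.

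Among the basement membrane chains, the ubiquitous pair COL4A1 and COL4A2 and the X-linked pair COL4A5 and COL4A6 rose, while the pair COL4A3 and COL4A4 did not pass the test. COL4A1 (chromosome 13, 110148963 to 110307233, minus strand, GRCh38), which supplies 2 of the 3 chains of the common type IV molecule, stood at 99.3 and 116 CPM in shControl and 471 and 538 CPM in shRALY. The groups were far apart: 108 ± 11.8 against 505 ± 47.8 CPM (SD, n = 2), 4.69-fold (log2 2.23, SE 0.11; edgeR adjusted p = 2.94e-13). Its partner COL4A2 (110305812 to 110513209, plus strand), whose promoter window above also holds the COL4A1 start site, stood at 240 and 328 CPM against 668 and 781 CPM. COL4A2 rose 2.55-fold (log2 1.35, SE 0.13; edgeR adjusted p = 8.78e-09), with no overlap between groups but a wider spread in shControl than COL4A1.

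COL4A5 (X chromosome, 108439844 to 108697545, plus strand), a chain of kidney, lung and skin basement membranes, was at 59.6 and 58.1 CPM in shControl and 226 and 257 CPM in shRALY. That is a 4.1-fold rise (log2 2.03, SE 0.11; edgeR adjusted p = 1.04e-12) on a control level that hardly varied. COL4A6 (108155607 to 108439497, minus strand), which combines with COL4A5, went from 47.8 and 60.1 CPM to 134 and 155 CPM, 2.68-fold (log2 1.42, SE 0.12; edgeR adjusted p = 3.26e-09). The fold changes of the 2 genes of a pair thus differed in size in both pairs, and that difference was not tested.

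COL4A3 and COL4A4 (chromosome 2, 227164565 to 227314792 and 227002711 to 227164453), which combine with COL4A5 in the network of kidney glomeruli and lung alveoli, were the scarcest type IV mRNAs. COL4A3 was at 6.31 and 7.75 CPM in shControl and 9.14 and 9.97 CPM in shRALY (log2 0.44, SE 0.20; edgeR adjusted p = 0.0879). COL4A4 was at 13.1 and 15.8 CPM against 17.4 and 20.9 CPM (log2 0.40, SE 0.17; edgeR adjusted p = 0.0557). For both genes the shRALY libraries lay above the shControl libraries, and leaving out shControl replicate 2 brought both past the threshold (COL4A3 log2 0.61, edgeR adjusted p = 0.0321; COL4A4 log2 0.56, edgeR adjusted p = 0.00873). With shControl replicate 1 left out the values were lower (COL4A3 log2 0.30, edgeR adjusted p = 0.308; COL4A4 log2 0.27, edgeR adjusted p = 0.206), and with shRALY replicate 2 left out COL4A4 was at 0.27 (edgeR adjusted p = 0.451). Offsets for GC content and transcript length brought both past the threshold (COL4A3 log2 0.53, edgeR adjusted p = 0.0206; COL4A4 log2 0.51, edgeR adjusted p = 0.00349). COL4A4 was also called among protein-coding genes alone (edgeR adjusted p = 0.0458) and with a filter of 10 CPM (edgeR adjusted p = 0.0438).

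**Figure D3:**
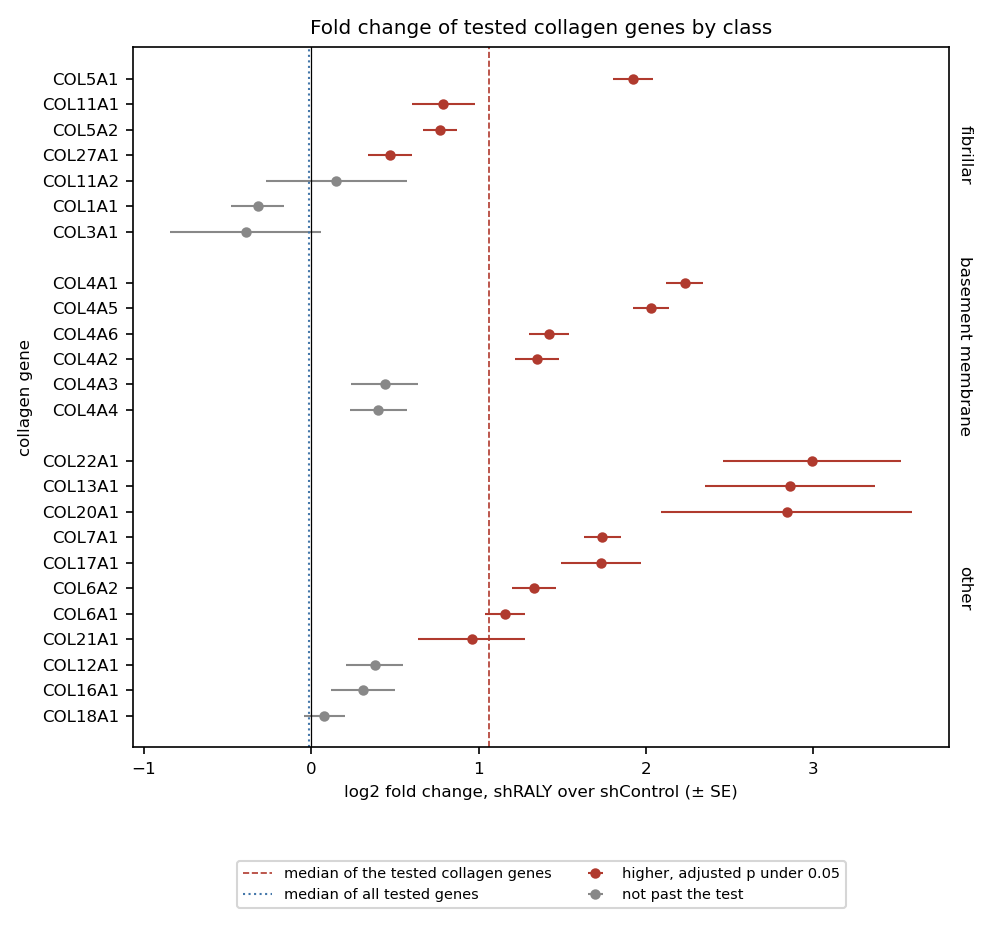
Log2 fold change (shRALY over shControl, ± SE) of the 24 tested collagen genes by class; red points passed an adjusted p of 0.05 and grey points did not. The dashed line is the median of these genes at 1.06 and the dotted line the median of all tested genes at -0.01; COL4A1, COL4A5 and COL5A1 are near or above 2 with small errors.

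Among the fibrillar chains COL5A1, COL5A2, COL11A1 and COL27A1 rose, and the chains of types I and III did not pass the test or had too few counts. COL5A1 (chromosome 9, 134641774 to 134844843, plus strand) encodes a chain of type V collagen, a minor fibril component that sets fibril diameter. It stood at 221 and 268 CPM in shControl and 831 and 1013 CPM in shRALY, 3.77-fold higher (log2 1.92, SE 0.12; edgeR adjusted p = 6.92e-12). COL5A2 (chromosome 2, 189031896 to 189225312, minus strand), the other chain of the common type V molecule, went from 310 and 355 to 544 and 587 CPM. This 1.7-fold rise (log2 0.77, SE 0.10; edgeR adjusted p = 2.95e-06) had no overlap between groups. COL5A3, another type V chain, had 1 and 5 counts in shControl and 10 and 6 in shRALY, too few to test.

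COL11A1, a fibril chain of cartilage that is closely related to COL5A1, went from 6.53 and 6.99 CPM to 11.6 and 11.8 CPM (1.73-fold; log2 0.79, SE 0.19; edgeR adjusted p = 0.00204). COL27A1, another cartilage fibril chain, went from 42.3 and 56.4 CPM to 64.4 and 72.2 CPM (log2 0.47, SE 0.13; edgeR adjusted p = 0.00634). The libraries of the 2 groups did not overlap for either gene, but COL27A1 lost its call without shRALY replicate 2 (log2 0.39, edgeR adjusted p = 0.138). Without shControl replicate 1 its log2 fold change was 0.27.

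Type I collagen is the chief collagen of bone, skin and scar tissue, built from 2 chains of COL1A1 and 1 of COL1A2. COL1A1 was at 17.6 and 17.9 CPM in shControl and 13 and 15.6 CPM in shRALY (log2 -0.32, SE 0.16; edgeR adjusted p = 0.127). It was the single tested chain with both shRALY libraries below both shControl libraries, and it did not pass the test. COL1A2 had 0 counts in 3 libraries and 2 counts in shRALY replicate 2. COL3A1, of type III collagen, was at 1.9 and 1.12 CPM against 1.09 and 1.22 CPM (log2 -0.39, SE 0.45; edgeR adjusted p = 0.534). COL11A2 was at 1.34 and 1.47 CPM against 1.52 and 1.59 CPM (log2 0.15, SE 0.42; edgeR adjusted p = 0.813). COL2A1, the main cartilage collagen, had no counts, and COL24A1 had 2 and 0 counts in shControl and 5 and 4 in shRALY.

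Of the 27 other chains 11 were tested, 8 were higher and 3 did not pass; without the 3 that passed the filter through shRALY alone, 5 of 8 were higher. COL7A1 (chromosome 3, 48564073 to 48595267, minus strand) encodes the anchoring fibrils that tie the epithelial basement membrane to the tissue below. It stood at 156 and 193 CPM in shControl and 550 and 610 CPM in shRALY, 3.33-fold higher (log2 1.74, SE 0.11; edgeR adjusted p = 2.44e-11). COL17A1 (chromosome 10, 104031286 to 104085957), a transmembrane collagen of the hemidesmosome on the cell side of that membrane, went from 2.62 and 3.46 CPM to 8.81 and 11.4 CPM. This was a 3.32-fold rise (log2 1.73, SE 0.24; edgeR adjusted p = 4.17e-06) at a far lower count. Both genes of this anchoring structure thus had separate groups.

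The beaded-filament collagen of type VI surrounds basement membranes in most tissues and is built from 3 different chains. COL6A1 (chromosome 21, 45981737 to 46005050) went from 46.4 and 57 CPM to 111 and 120 CPM (2.23-fold; log2 1.16, SE 0.12; edgeR adjusted p = 5.58e-08). COL6A2, its neighbour on chromosome 21 (46098097 to 46132849), went from 26.5 and 35.5 CPM to 75.8 and 80.3 CPM (2.52-fold; log2 1.33, SE 0.13; edgeR adjusted p = 2.70e-08). COL6A3, which usually completes the molecule, had 6 and 5 counts in shControl and 6 and 4 in shRALY. COL6A5 had no counts and COL6A6 at most 4, so 2 chains of this type were expressed well and the others were at or near the limit of detection.

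COL18A1 (chromosome 21, 45405137 to 45513720), whose product carries heparan sulfate in epithelial basement membranes, was among the most abundant chains. It stood at 291 and 398 CPM in shControl and 345 and 381 CPM in shRALY (log2 0.08, SE 0.12; edgeR adjusted p = 0.666), so that both shRALY libraries fell between the shControl libraries. The log2 fold change was -0.14 without shControl replicate 1 (edgeR adjusted p = 0.204) and 0.33 without shControl replicate 2 (edgeR adjusted p = 0.0017). Its exons overlap opposite-strand SLC19A1 over 16.4% of their bases, and the strand setting of the counting is not given in the sources used here. COL15A1, the other chain of this kind, had 8 counts at most.

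The chains that decorate fibrils (FACIT collagens) were mostly scarce. COL12A1 was at 19.7 and 17.7 CPM in shControl and 19.5 and 29.2 CPM in shRALY (log2 0.38, SE 0.17; edgeR adjusted p = 0.0824), with overlapping groups and shRALY replicate 2 highest. With shRALY replicate 2 left out the log2 fold change was 0.07 (edgeR adjusted p = 0.869). COL12A1 passed when shRALY replicate 1 was left out (log2 0.65, edgeR adjusted p = 0.0167) and with offsets for GC content and length (log2 0.48, edgeR adjusted p = 0.0106). COL16A1 was at 8.37 and 9.28 CPM against 11.2 and 10.7 CPM (log2 0.31, SE 0.19; edgeR adjusted p = 0.196). COL21A1 went from 1.95 and 1.64 CPM to 3.59 and 3.42 CPM (log2 0.96, SE 0.32; edgeR adjusted p = 0.0183). The COL21A1 call was lost with DESeq2 (adjusted p = 0.0757). With edgeR it was lost when shControl replicate 2 (adjusted p = 0.0703), shRALY replicate 1 (0.105) or shRALY replicate 2 (0.0677) was left out.

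The 3 chains named above for passing the filter through shRALY alone had the highest fitted fold changes of the family, from few counts. COL22A1, a chain of tissue junctions, had 3 and 8 counts in shControl and 52 and 37 in shRALY (log2 2.99, SE 0.53; edgeR adjusted p = 8.80e-05), and its log2 fold change was 3.89 without shControl replicate 2. COL13A1, a transmembrane collagen, had 8 and 5 counts against 36 and 58 (log2 2.86, SE 0.51; edgeR adjusted p = 9.96e-05). COL20A1 had 4 and 1 counts against 20 and 17 (log2 2.84, SE 0.75; edgeR adjusted p = 0.00401). Leaving out shControl replicate 1 gave COL20A1 a log2 fold change of 4.02, and leaving out shControl replicate 2 ended its call (2.23, edgeR adjusted p = 0.0576). Their shRALY levels of 1.04 to 3.55 CPM stayed far below those of the type IV and type V genes.

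The 20 untested chains were at or near 0. No counts were found for COL2A1, COL6A5, COL8A1, COL9A1, COL19A1 and COL25A1 in any library. The other 14 reached 18 counts at most, in COL26A1 (18 and 6 in shControl, 8 and 8 in shRALY). COL9A2, a cartilage chain, had 8 and 3 counts against 14 and 2, and COL9A3 had 3 and 5 against 6 and 0. COL14A1 had 0 and 2 counts against 4 and 6, and COL28A1 0 and 3 against 8 and 5, so that both shRALY libraries were above both shControl libraries but at counts that cannot show a difference. COL8A2, COL10A1 and COL23A1 had 6 counts at most.

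COL4A3BP (chromosome 5, 75356345 to 75512138), the ceramide transfer gene that matches by symbol, was at 59.6 and 53.2 CPM in shControl and 70.2 and 73.9 CPM in shRALY (log2 0.35, SE 0.11; edgeR adjusted p = 0.0174). The groups did not overlap, but the edgeR adjusted p was 0.129 with shRALY replicate 1 left out and 0.238 with replicate 2 left out.

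Levels of different genes were compared per length, as CPM per kilobase of the union of a gene's exons (RPKM). In shControl COL5A2 came first at 41.6 and 47.7 RPKM and COL18A1 next at 34.1 and 46.7 RPKM, and these ranges overlap. COL5A1 (19.7 and 23.9 RPKM) stood above COL7A1 (14.1 and 17.4 RPKM), and COL7A1 and COL4A2 (12.4 and 17 RPKM) overlapped. COL4A1 ranked 7 at 6.74 and 7.88 RPKM. In shRALY COL5A1 came first at 74.2 and 90.6 RPKM, overlapping COL5A2 at 73 and 78.8 RPKM. COL7A1 ranked 3 at 49.7 and 55.1 RPKM, and COL18A1 ranked 4 at 40.5 and 44.6 RPKM. COL4A2 (34.6 and 40.5 RPKM) and COL4A1 (31.9 and 36.5 RPKM) overlapped in shRALY and did not in shControl. This order depends on the length used. Per kilobase of the longest transcript, COL18A1 ranked 1 in shControl (44.2 and 60.4 CPM per kilobase), overlapping COL5A2 and COL4A2. In shRALY COL4A2 (103 and 120) then ranked 1, overlapping COL5A1 (98 and 120), and COL5A2 (76.9 and 82.9) ranked 3, overlapping COL4A1 (71.2 and 81.4).

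Chains that combine in 1 molecule were set against each other. Per length, COL4A1 was 0.542 and 0.464 of COL4A2 in shControl and 0.923 and 0.902 of it in shRALY. COL5A1 was 0.475 and 0.502 of COL5A2 in shControl and 1.02 and 1.15 in shRALY. The ratio of COL4A5 to COL4A6 went from 0.976 and 0.757 to 1.32 and 1.29. In these 3 pairs the ratios of the 2 groups did not overlap. The ratio of COL4A3 to COL4A4 was 0.531 and 0.542 in shControl and 0.582 and 0.526 in shRALY, with overlap, and that of COL6A1 to COL6A2 was 1.77 and 1.62 against 1.47 and 1.5, without overlap. The absolute ratios depend on the length used: with the longest transcript in place of the exon union, COL4A1 over COL4A2 was 0.407 and 0.348 in shControl and 0.692 and 0.677 in shRALY. On that length COL4A5 over COL4A6 was 1.75 and 1.72 in shRALY, and at or above 1 in shControl. With 2 libraries a group, an exact permutation test cannot go below p = 0.333, so these ratios were not tested.

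**Figure D4:**
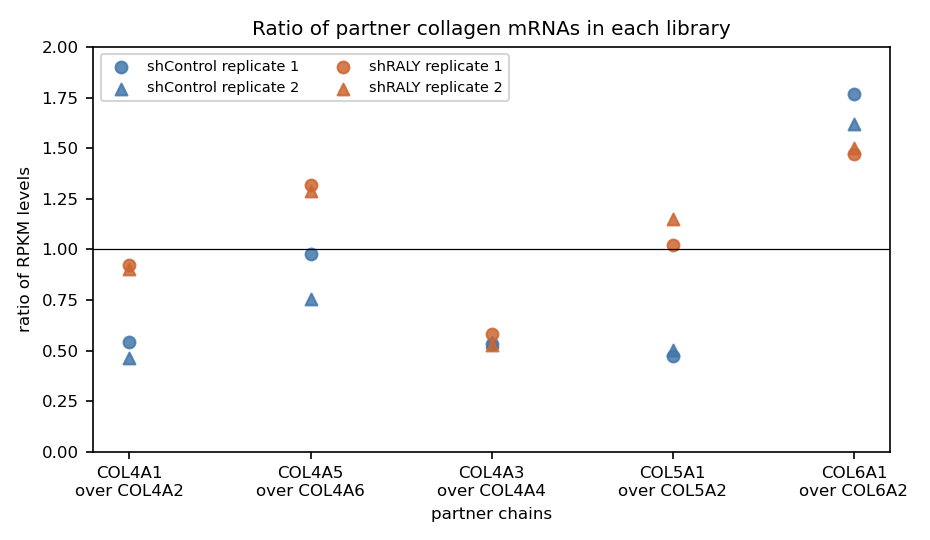
Ratio of the RPKM levels of partner collagen chains in each library; circles are replicate 1 and triangles replicate 2 of shControl (blue) and shRALY (orange), and the line marks equal levels. COL4A1 over COL4A2 is 0.464 to 0.542 in shControl and 0.902 to 0.923 in shRALY, and COL4A3 over COL4A4 overlaps between groups.

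The transcripts of the tested chains are long and rich in G and C, with a median longest transcript of 6601 bases and 58.9% GC, against 3333 bases and 48.5% for all tested genes. The medians were 6555 bases and 58.9% GC for the 16 chains that rose, and 6656 bases and 56.6% GC for the 8 that did not pass. With offsets for GC content and length 19 chains were higher and 0 lower, and the shares of all tested genes were also larger, at 25% higher and 24.3% lower.

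Promoter windows were found for 32 of the 44 chains. Each motif was searched on both strands and counted per gene over all its windows. The CCAAT box (CCAAT) occurred in 6 of 12 chains that rose, among them COL4A1, COL4A2, COL4A5 and COL4A6. It occurred in 1 of 6 that did not pass, in 5 of 14 that were not tested and in 34.6% of all 35116 windows of 300 bases. The windows of COL4A1 and COL4A2 share 226 bases and those of COL4A5 and the nearer COL4A6 start site share 121, so these are not separate occurrences. The GC box (GGGCGG) occurred in 9 of 12, 5 of 6 and, among untested chains, 7 of 14, against 45% of all windows. COL4A1 and COL4A2, whose windows overlap, are both among the 9, and COL4A6 is there only through its farther start site. The TATA box (TATAAA) occurred in 4 of 12, 1 of 6 and, among untested chains, 2 of 14, against 11.5%. The AP-1 site (TGANTCA, 7.71% of windows) and the ER stress response element (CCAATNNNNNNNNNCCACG, 0.0769%, which contains the CCAAT box) were in no window of the chains that rose or did not pass. The ATF4-type element TGATGNAA (3.62% of windows) was in that of COL21A1. These are letter matches in short windows, and a gene with several windows has more chances of a match.

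Of the genes that modify, fold, export, trim and cross-link collagen, many were higher and none lower. Of 39 listed genes 34 were tested, 18 were higher (52.9%, against 20.6% of all tested genes), none was lower and 16 did not pass, with a median log2 fold change of 0.45. Before adjustment edgeR had 18 higher and 1 lower at p under 0.05, and DESeq2 called 17 higher and 0 lower. Of the 14 tested genes of proline and lysine modification 8 were higher. PLOD2, the lysyl hydroxylase that acts on collagen ends and sets the type of cross-link, went from 403 and 309 CPM to 893 and 913 CPM (2.54-fold; log2 1.34, SE 0.11; edgeR adjusted p = 1.99e-09). P4HA3, a catalytic subunit of prolyl 4-hydroxylase, went from 20.6 and 21.4 CPM to 55.5 and 52.9 CPM (2.58-fold; edgeR adjusted p = 7.85e-09). Its relative P4HA2 rose 2.19-fold (edgeR adjusted p = 2.91e-08). CRTAP, of the prolyl 3-hydroxylation complex, was at 353 and 356 CPM against 410 and 404 CPM (log2 0.20; edgeR adjusted p = 0.114), and passed without shControl replicate 2 (edgeR adjusted p = 0.0323) and with GC content and length offsets (edgeR adjusted p = 0.00163).

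Of 10 chaperone and export genes 5 were higher, against 20.6% of all tested genes. SEC24D, a coat protein of the vesicles that leave the endoplasmic reticulum and one needed for procollagen export, went from 41.1 and 40.1 CPM to 116 and 121 CPM (2.91-fold; log2 1.54, SE 0.11; edgeR adjusted p = 1.54e-10). MIA3, which encodes TANGO1, the receptor that loads procollagen into these carriers, rose 2.29-fold, from 55.3 and 45.9 CPM to 113 and 119 CPM (edgeR adjusted p = 2.43e-08). SEC23A, a partner coat protein, was at 231 and 199 CPM against 232 and 243 CPM (log2 0.14; edgeR adjusted p = 0.309), and with shControl replicate 1 left out its log2 fold change of 0.25 passed (edgeR adjusted p = 0.0142), while with shControl replicate 2 left out it was 0.05 (edgeR adjusted p = 0.662). SERPINH1, the collagen-specific chaperone HSP47, was at 159 and 169 CPM in shControl and 161 and 171 CPM in shRALY (log2 0.02, SE 0.10; edgeR adjusted p = 0.902).

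**Figure D5:**
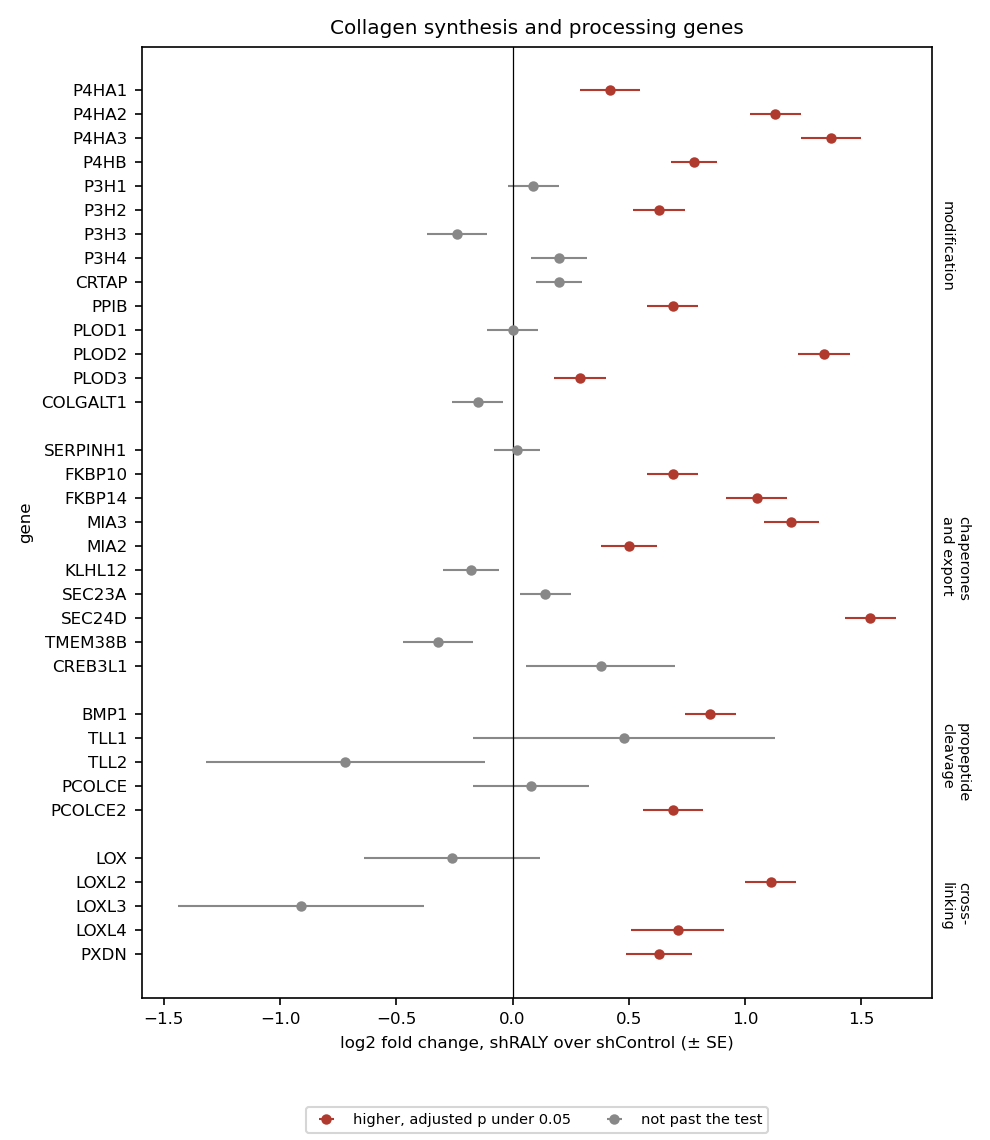
Log2 fold change (shRALY over shControl, ± SE) of the 34 tested genes of collagen modification, chaperoning and export, propeptide cleavage and cross-linking; red points passed an adjusted p of 0.05 and grey points did not. SEC24D (1.54), P4HA3 (1.37) and PLOD2 (1.34) lie farthest right, and SERPINH1 lies at 0.02.

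After secretion, propeptides are cut off and chains are cross-linked. Of 5 tested cleavage genes 2 were higher, against 20.6% of all tested genes, and 3 did not pass. Among those higher was BMP1, the procollagen C-proteinase, which rose 1.8-fold from 100 and 119 CPM to 186 and 209 CPM (edgeR adjusted p = 2.40e-06). ADAMTS2 and ADAMTS3, proteinases of the other propeptide, had 3 counts at most. Of 5 tested cross-linking genes 3 were higher, against the same 20.6%. LOXL2, a lysyl oxidase that acts on type IV collagen, went from 327 and 398 CPM to 739 and 827 CPM (2.16-fold; log2 1.11, SE 0.11; edgeR adjusted p = 2.36e-08). LOX itself was at 1.95 and 2 CPM against 1.52 and 1.77 CPM (log2 -0.26; edgeR adjusted p = 0.62).

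Of 27 listed receptors, matrix partners and collagen-degrading enzymes 19 were tested, 10 were higher (52.6%, against 20.6% of all tested genes), none was lower and 9 did not pass, with a median log2 fold change of 0.79. Before adjustment edgeR had 13 higher and 0 lower at p under 0.05, and DESeq2 called 9 higher and 0 lower. Among the receptors, ITGA2, the collagen-binding integrin subunit alpha 2, went from 58.1 and 56.1 CPM to 406 and 470 CPM (7.67-fold; log2 2.94, SE 0.12; edgeR adjusted p = 3.58e-15). ITGA11, a fibrillar collagen receptor subunit, rose 1.73-fold (edgeR adjusted p = 1.79e-05), while their common partner ITGB1 was at 1884 and 1632 CPM against 1625 and 1619 CPM (log2 -0.12; edgeR adjusted p = 0.361). ITGA2 had the highest fold change among the 19 tested genes of this list.

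Of 4 tested partners of type IV collagen in basement membranes 3 were higher, against 20.6% of all tested genes. NID1, which links laminin to type IV collagen, went from 30.2 and 35.4 CPM to 65.4 and 76.4 CPM (2.16-fold; edgeR adjusted p = 2.16e-07), and the proteoglycan gene AGRN from 487 and 634 CPM to 1148 and 1281 CPM (2.17-fold; edgeR adjusted p = 4.20e-08). HSPG2, the proteoglycan perlecan, was at 316 and 532 CPM in shControl and 627 and 978 CPM in shRALY. The groups were separate, but replicate 2 was higher in both, and the test was not passed (log2 0.92, SE 0.41; edgeR adjusted p = 0.196). With shControl replicate 1 left out the log2 fold change was 0.59 (edgeR adjusted p = 0.545). HSPG2 passed in edgeR without robust estimation (adjusted p = 0.000228). With shRALY replicate 1 left out its log2 fold change was 1.21 (edgeR adjusted p = 1.52e-10), and with shRALY replicate 2 left out 0.58 (edgeR adjusted p = 0.00789). SPARC, a collagen-binding matrix protein, rose 2.63-fold (edgeR adjusted p = 1.85e-08), and FN1, fibronectin, was at 776 and 959 CPM against 938 and 1139 CPM with overlap (log2 0.26; edgeR adjusted p = 0.0712). The log2 fold change of FN1 was 0.11 with shControl replicate 1 left out (edgeR adjusted p = 0.378) and 0.12 with shRALY replicate 2 left out (edgeR adjusted p = 0.675). FN1 passed in edgeR when shControl replicate 2 was left out (log2 0.43, adjusted p = 0.000362), with no filter on low counts (edgeR adjusted p = 0.0488) and with GC content and length offsets (edgeR adjusted p = 0.0135). Of 4 tested collagen-degrading enzymes 1 was higher and 3 did not pass. The higher one, MMP2, went from 10.6 and 13.8 CPM to 18.8 and 24.5 CPM (log2 0.83, edgeR adjusted p = 0.000635). Of the interstitial collagenases MMP1 and MMP8 had no counts, and MMP13 had 1 and 0 counts in shControl and 12 and 5 in shRALY, too few to test. P4HA2, SERPINH1, BMP1, LOX, HSPG2, MMP2 and the genes named for few or no counts were chosen after their values were seen.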

How the data were processed

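Polyadenylated RNA of 4 A549 libraries was sequenced. The authors deposited a file of raw gene counts for each library. Per the submitters' processing notes, the build was hg38 and the tools were featureCounts 1.5.0-p3, HISAT2 2.0.5 and DESeq2 1.20.0. How strand and multi-mapping reads were handled, and which annotation was counted, is not given in the sources used here. All 58735 identifiers matched GENCODE 29, which supplied symbols, coordinates and lengths.

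Counts were tested with edgeR 4.0.16 (R 4.3.3): filterByExpr with a minimum count of 10 and total of 15, TMM scaling and the robust quasi-likelihood F-test with 2 residual degrees of freedom, without a covariate. The filter kept 15912 genes with 99.83% of counts. Adjusted p-values are Benjamini-Hochberg over all tested genes (threshold 0.05); standard errors were taken as |log2 fold change|/√F. CPM use TMM-scaled library sizes. Both count tests were tested on simulated data. Alternatives were DESeq2 1.42.0, RLE factors, library size alone, 2 other filters, no robust estimation, a replicate block, offsets for GC content and length (with and without the block), each library left out, and protein-coding genes alone. Group and replicate came from the titles.

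The members and lists were chosen with earlier results of these data known. Of the other lists, the 5 genes with the smallest adjusted p in each direction and the 2 most abundant that did not pass were named. At most 0.177% of the 50-base words of any chain's longest transcript occur in another gene's longest transcript.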

Additional observations from a re-analysis of the deposited data

How the results depend on the processing

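Across the 14 alternatives the number of chains called higher ran from 12 to 20, and 0 were called lower under each. The 12 were of 16 tested chains, with a filter of 10 CPM in 2 libraries (27.1% of all tested genes higher). The 20 were of 24 tested chains, with GC content and length offsets and the replicate block (27% of all tested genes higher). As reported, 16 of 24 chains were higher (20.6% of all tested genes). Of the 16, 13 were called under every alternative that tested them, and COL20A1, COL21A1 and COL27A1 were not. Leaving out 1 library gave 14 to 17 chains higher, and for all tested genes 2040 to 3559 higher and 1897 to 3499 lower. Synthesis and processing genes called lower numbered 0 as reported, 1 with library size alone, 2 with GC content and length offsets, 3 with these and the block, and 0 to 2 with 1 library left out; receptor and partner genes called lower numbered 1 with the offsets and the block. The cause was not tested. The 10 CPM filter tests fewer chains. No call of a chain changed sign; among genes that did not pass as reported, the log2 fold change of COL3A1 ran from -0.70 to 0.04, that of COL18A1 from -0.14 to 0.33 and that of SERPINH1 from -0.03 to 0.08 with 1 library left out (COL18A1 passed at 0.33), and SERPINH1 was -0.04 with library size alone. The labels do not say that replicate numbers pair the libraries, and same-numbered deviations correlated at 0.0721 over 15912 tested genes. With the replicate block 18 chains were higher and 0 lower, 19 and 0 of the processing genes, and 14 and 0 of the receptor and partner genes, while over all tested genes 3639 were higher and 3619 lower, against 3274 and 3245 as reported. With the block the edgeR adjusted p was 0.0255 for COL4A4, 0.0333 for COL12A1, 0.0488 for CRTAP, 0.00411 for FN1 and 1.13e-26 for HSPG2, none of which passed as reported. Scarce chains under about 10 counts a library are limited by depth.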
